A study of Eumeta variegata with 6 samples.

Results

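Flightin, paramyosin and myofilin are proteins of the thick filament, the myosin bundle of the muscle sarcomere. Their transcripts were examined by RNA sequencing in head samples of Eumeta variegata, a bagworm moth also listed as Clania variegata, in 3 male and 3 female libraries. As background, adult males of this moth have wings and fly, and females have none. A sequence counted as a member where its NR or Swiss-Prot description held the word flightin, paramyosin or myofilin. This rule took 5 of 41283 assembled sequences, namely 4 paramyosin sequences and 1 flightin sequence, and no description held the word myofilin. The members were chosen by name, but with their male and female FPKM known from earlier work on the same table. Their differences between the sexes are therefore given as a description, without a test. All samples are labelled as head, and sex is the only factor in the labels. The labels state no age, stage, strain or pooling, so the p-values below measure only the spread between these libraries, which may be technical.

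Paramyosin is a coiled-coil protein of invertebrate muscle that forms the core on which myosin packs. In Drosophila the same gene also gives a short form, miniparamyosin, which shares the rod end of the long form and has its own start. Flightin binds myosin and sets the length and stiffness of thick filaments, and in Drosophila it is found in the flight muscle of the thorax. Myofilin is a further thick filament protein of insects.

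Levels are FPKM, fragments scaled to sequence length and sequencing depth, from the authors' table, so that levels of different sequences can be compared per length. Library sums lay between 480295 and 492028 FPKM. The read totals behind them are not in the table, so no counting error can be given. All 5 members reached 1 FPKM in at least 3 libraries, the minimum for a test across sequences. Sequence names ended in 1 for 3 members and in 2 for 2 members. The ending is given because the libraries fell into 2 sets by it, across the sexes. In males 2 and 3 and female 2, zeros were less frequent for names with ending 1, and in male 1 and females 1 and 3 for names with ending 2.

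The most abundant member was a short form of paramyosin, TRINITY_DN3288_c0_g1_i13_2, named after a Manduca sexta isoform and called DN3288 below. It had 634, 621 and 630 FPKM in males 1, 2 and 3, against 633, 741 and 862 FPKM in females 1, 2 and 3. The males lay close together, female 1 lay among them, and females 2 and 3 lay above, so the sexes overlapped. DN3288 averaged 628 ± 6 FPKM in males and 745 ± 115 FPKM in females (SD, n = 3 each). On the scale of log2(FPKM + 1) the difference of means, male minus female, was -0.23. By mean level it stood at rank 68 of the 41283 sequences. In whole heads, fewer muscle cells and less RNA per muscle cell cannot be told apart in this or any later value.

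The second sequence named as a short form, TRINITY_DN15509_c0_g1_i1_1 or DN15509, was far lower and had the opposite order of the sexes. It had 9.56, 8.64 and 6.72 FPKM in males 1, 2 and 3, against 1.31, 0.728 and 2.14 FPKM in females 1, 2 and 3. Every male lay above every female, and the females differed among themselves by more than the males did in proportion. Means were 8.31 ± 1.45 FPKM in males and 1.39 ± 0.71 FPKM in females (SD, n = 3 each), a male-to-female ratio of 5.96. The difference on the log2(FPKM + 1) scale was 1.99, and it became 2.59 with a pseudocount of 0.1 in place of 1. Its name came from Swiss-Prot alone, since the NR match was an unnamed protein of Diatraea saccharalis.

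A pair of sequences had the same NR match, the long form of paramyosin of Eumeta japonica, and they did not show the same pattern. Neither had a Swiss-Prot match or an orthologous group, so the name of both came from NR alone. TRINITY_DN4327_c0_g1_i2_1, or DN4327, had 13.1, 15.2 and 13.3 FPKM in males 1, 2 and 3, against 6.0, 7.67 and 6.63 FPKM in females 1, 2 and 3. The sexes did not overlap, and the means were 13.9 ± 1.2 FPKM in males and 6.77 ± 0.85 FPKM in females (SD, n = 3 each), with a difference of 0.94 on the log2(FPKM + 1) scale. TRINITY_DN7594_c0_g1_i1_2, or DN7594, had 5.80, 7.14 and 5.74 FPKM in males 1, 2 and 3, against 5.21, 5.16 and 7.23 FPKM in females 1, 2 and 3. Here the sexes overlapped, with the highest value in female 3 and the next in male 2. Its means were 6.23 ± 0.79 FPKM in males and 5.87 ± 1.18 FPKM in females (SD, n = 3 each), a difference of 0.08. Sequences that match the same protein can be pieces or variants of a single gene, and the counting may divide reads among close copies. Single levels within this family are therefore uncertain.

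The flightin sequence, TRINITY_DN369_c0_g1_i4_1 or DN369, was lower in males. It had 30.1, 38.8 and 28.9 FPKM in males 1, 2 and 3, against 69.9, 84.0 and 103.8 FPKM in females 1, 2 and 3. The highest male lay well below the lowest female. Means were 32.6 ± 5.4 FPKM in males and 85.9 ± 17.0 FPKM in females (SD, n = 3 each), a male-to-female ratio of 0.380 and a difference of -1.36 on the log2(FPKM + 1) scale. Among all sequences flightin held ranks 1445 to 2067 in the male libraries and ranks 455 to 725 in the female libraries.

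**Figure D1:**
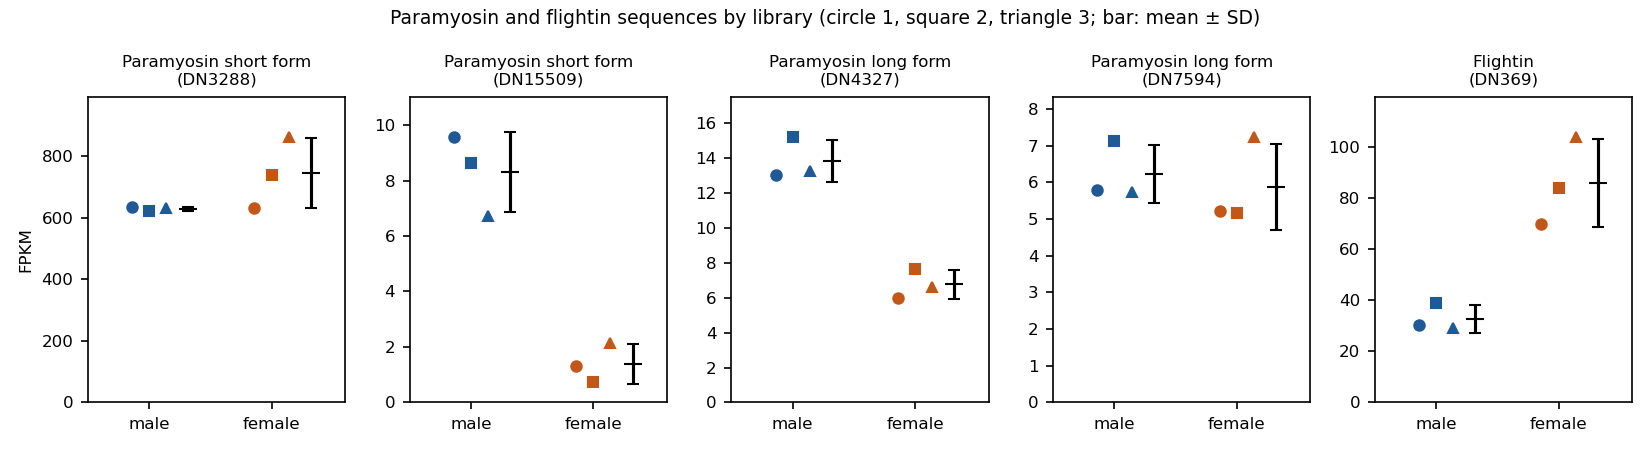
FPKM of the 4 paramyosin sequences and the flightin sequence in each library, males on the left and females on the right of each panel, each panel with its own axis from 0. Circles, squares and triangles are replicates 1, 2 and 3, and bars are the mean ± SD; the sexes do not overlap in DN15509, DN4327 and DN369 and overlap in DN3288 and DN7594.

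Of the 5 members, DN15509 and DN4327 had every male above every female, and flightin had every male below every female. Among all 35198 sequences tested, 18.2% had every male above every female and 12.0% every male below. Since the members were chosen with these values known, nothing is read from their count. Within males 2 and 3 against female 2, the differences on the log2(FPKM + 1) scale were 2.32 for DN15509, 0.81 for DN4327, 0.27 for DN7594, -0.24 for DN3288 and -1.30 for flightin. Within male 1 against females 1 and 3 they were 1.97, 0.94, -0.07, -0.22 and -1.47 in the same order. Only DN7594 had different signs in these 2 sets of libraries.

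The order of levels per length began in both sexes with DN3288, then flightin, then DN4327. In males DN15509 and DN7594 followed, and their values overlapped (6.72 to 9.56 FPKM and 5.74 to 7.14 FPKM). In females DN7594 came before DN15509, and DN7594 overlapped with DN4327 (5.16 to 7.23 FPKM and 6.0 to 7.67 FPKM). DN3288 made up 95.2% to 96.1% of the summed paramyosin FPKM in the male libraries and 98.1% to 98.2% in the female libraries. The sum itself was 662, 652 and 656 FPKM in males 1, 2 and 3, against 646, 754 and 878 FPKM in females 1, 2 and 3. The summed level thus followed DN3288, and the minor sequences with a male excess moved it by a few percent. FPKM of sequences that may be pieces of a single gene do not add up to a gene level. The sum and the shares therefore describe these named sequences only.

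The sequence whose pattern was nearest to that of DN3288 was a muscle myosin heavy chain. Likeness was measured as the root mean square distance between mean-centred log2(FPKM + 1) profiles over the 6 libraries, among 6775 named sequences with a mean of at least 5 FPKM. The nearest, TRINITY_DN370_c0_g1_i63_2 or DN370, is named after Myosin-4 of Caenorhabditis elegans, a heavy chain of body wall muscle, and lay at a distance of 0.027. DN3288 itself varied about its own mean by 0.17. DN370 had 895, 909 and 869 FPKM in males 1, 2 and 3, against 900, 1030 and 1217 FPKM in females 1, 2 and 3. As in DN3288, female 1 lay among the males and females 2 and 3 above them. The difference of means of DN370 on the log2(FPKM + 1) scale, male minus female, was -0.22. Since DN370 was chosen for its likeness to DN3288, no test is given for it.

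**Figure D2:**
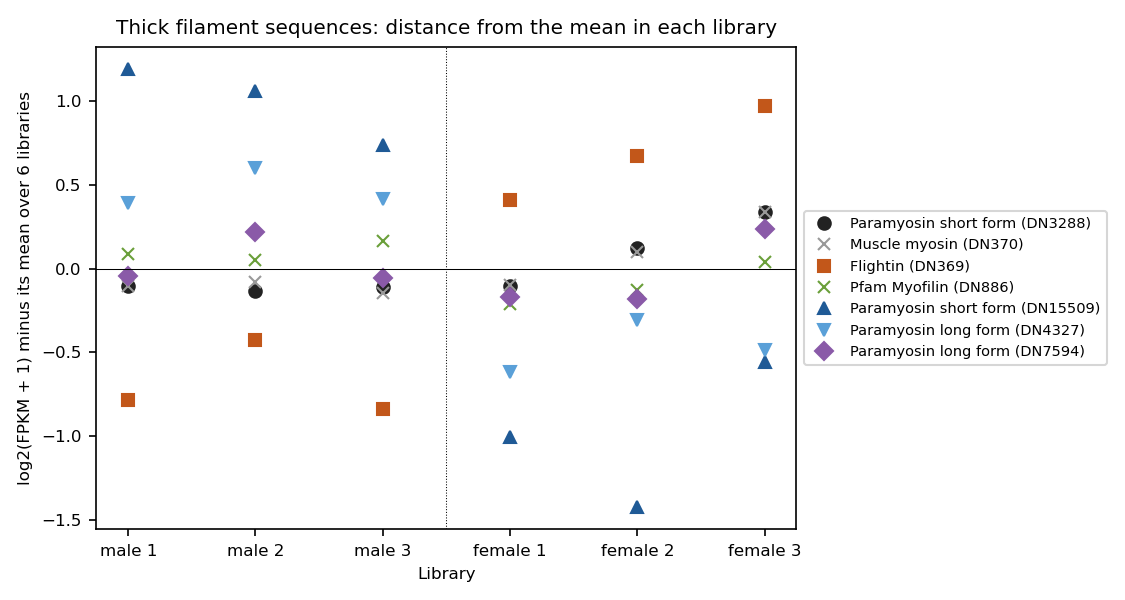
Distance of log2(FPKM + 1) from its mean over the 6 libraries (vertical axis) for the 5 members, the muscle myosin DN370 and the sequence with a Pfam Myofilin domain, by library, males left of the dotted line. The points of DN3288 and DN370 lie close together in every library, at a root mean square distance of 0.027.

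Set against this myosin within each library, paramyosin DN3288 was nearly constant. It stood at 70.8%, 68.3% and 72.5% of the myosin FPKM in males 1, 2 and 3, against 70.3%, 71.9% and 70.8% in females 1, 2 and 3. The highest of the 6 shares was 1.06 times the lowest. DN370 was chosen for this likeness among these same libraries, so the constancy is a description of them.

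The other members were small beside myosin, and their shares did not overlap between the sexes. Flightin stood at 3.37%, 4.27% and 3.33% of the myosin FPKM in males 1, 2 and 3, against 7.76%, 8.16% and 8.53% in females 1, 2 and 3. The mean share of flightin was 3.65% ± 0.53 in males and 8.15% ± 0.38 in females (SD, n = 3 each). DN4327 averaged 1.55% ± 0.11 of the myosin FPKM in males and 0.652% ± 0.101 in females, and DN15509 averaged 0.931% ± 0.148 in males and 0.131% ± 0.054 in females (SD, n = 3 each). The shares of DN7594 did not overlap, at 0.648% to 0.785% in males and 0.501% to 0.594% in females, although its FPKM did. Dividing by DN370, which was itself higher in females 2 and 3, raises the mean male share of a sequence relative to its mean female share. Of the 35197 other sequences tested, 25.5% had every male share above every female share and 5.32% every male share below, so nothing is read from the count of members without overlap.

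Myofilin itself is represented outside the rule. A single sequence, TRINITY_DN886_c0_g1_i12_2 or DN886, carried the Pfam domain Myofilin under the NR description of a hypothetical protein of Eumeta japonica, and it was singled out after its values were seen. It had 231, 226 and 245 FPKM in males 1, 2 and 3, against 188, 199 and 224 FPKM in females 1, 2 and 3. The lowest male lay just above the highest female. Its difference on the log2(FPKM + 1) scale was 0.20, given as a description without a test. As a share of the myosin FPKM it was 26.3% ± 1.7 in males and 19.5% ± 1.3 in females (SD, n = 3 each), so that flightin and this sequence lay on opposite sides.

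**Figure D3:**
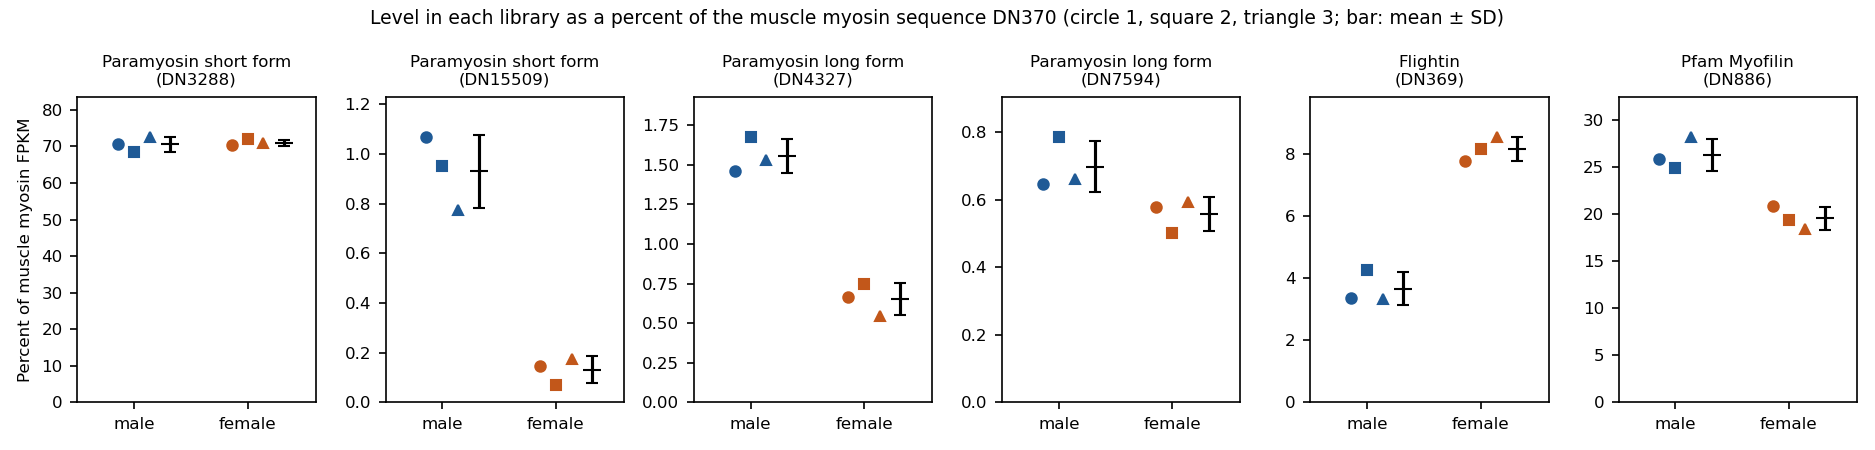
Level of each sequence as a percent of the FPKM of the muscle myosin DN370 in the same library, males left and females right in each panel, each with its own axis from 0; symbols are replicates 1, 2 and 3 and bars the mean ± SD. DN3288 stays between 68.3% and 72.5% in all 6 libraries, and the other 5 sequences have no overlap of the sexes, beside 25.5% of all other sequences with males above and 5.32% with males below on this scale.

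The nearest profiles of the other members, like DN370, did not belong to the muscle lists described below. For flightin they were Puromycin-sensitive aminopeptidase, a peptidase (distance 0.11), Leucine-rich repeat-containing protein 20 (0.13) and Putative ankyrin repeat protein RF_0381 (0.15). The first of these averaged 11.9 ± 1.5 FPKM in males and 33.9 ± 2.7 FPKM in females (SD, n = 3 each). For DN15509 they were a Synaptic vesicle glycoprotein 2B sequence (0.24), Pupal cuticle protein PCP52 (0.24) and semaphorin-2A, an axon guidance protein (0.24). For DN4327 they were Nuclear factor interleukin-3-regulated protein, a transcription factor (0.061), Tubulin alpha-1A chain (0.083) and G1/S-specific cyclin-D3 (0.086). For DN7594 they were Signal transducer and activator of transcription 5B (0.065), protein kinase C isoform X3 (0.071) and inactive dipeptidyl peptidase 10 (0.073). Behind the myosin, DN3288 was followed by Voltage-dependent L-type calcium channel subunit beta-2 (0.034) and Zinc finger CCHC domain-containing protein 8 homolog (0.037). Over so few libraries, many sequences lie near any profile of this kind.

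Among themselves the members differed in profile. The 2 short forms lay at a distance of 1.14, the 2 long forms at 0.46, and flightin and DN15509, the farthest pair, at 1.70. These distances grow with the variation of each sequence about its own mean. That variation was 1.03 for DN15509, 0.71 for flightin, 0.48 for DN4327, and 0.17 for both DN3288 and DN7594. In the authors' annotation DN3288 and DN15509 were the members placed in the orthologous group of class II myosin heavy chains, which took in 8 sequences in all. Both also carried gene ontology terms for the myosin filament and myofibril assembly. Flightin carried terms for the striated muscle thick filament, the A band and oscillatory contraction, and the long forms carried none.

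The remaining muscle sequences were read from a limma fit of log2(FPKM + 1) over all 35198 sequences, in which a call is a Benjamini-Hochberg adjusted p below 0.05. This fit called 7.11% of the sequences, 4.40% higher in males and 2.70% higher in females. With libraries scaled by the median of ratios, these calls were split into 1324 and 1330, against 1549 and 952 as deposited. Over 6 lists of other muscle proteins and of regulators of muscle and wing identity, 18 of 76 tested sequences were called. Of these calls, 13 were higher in males and 5 higher in females. The regulators made up 12 of the 76, with 1 call in each direction. Log2 fold changes of the 76 sequences had a median of 0.22, beside 0.05 over all sequences. The 18 calls became 4, 5 and 6 when male 1, 2 or 3 was left out, none of them higher in females. They became 21 without female 1 (12 higher in males and 9 in females), 9 without female 2 and 11 without female 3. With the set of libraries as a model term they were 9, of which 8 were higher in males. In 14 of the 18, leaving out at least 1 library ended the call, and for the sequences named below "sensitive" means this. Over the 18 calls the limma adjusted p lay between 0.0024 and 0.046, and the SE of the log2 fold change between 0.042 and 0.17.

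Thick filament partners gave 2 calls of 7, both higher in males, and their median was 0.12 (0.03 without 3 matches that are not muscle proteins). This list does not hold the myosin heavy chain DN370, which averaged 891 ± 20 FPKM in males and 1049 ± 159 FPKM in females. Both calls were light chains, which bind the neck of the myosin head. Myosin regulatory light chain 2 had 691 ± 53 FPKM in males and 433 ± 30 FPKM in females (log2 fold change 0.67, limma adjusted p = 0.012), and Myosin light chain alkali had 27.3 ± 1.9 FPKM in males and 20.02 ± 1.1 FPKM in females (0.43, limma adjusted p = 0.020). The first call ended without male 1 or male 3, and the second without any of the males or female 3. Of the giant proteins that tie thick filaments to the Z-disc and M-line, 1 of 20 was called (5.0%, beside 7.11% of all sequences), a Titin homolog (log2 fold change 0.57, sensitive). The median of this list was 0.40, and 17 of 20 lay above 0, beside 54.7% of all sequences. Without female 1 its calls were 0 higher in males and 2 higher in females. Sequences of this list that match the same protein may be pieces of a single gene, so the 20 need not be independent. The most abundant of them, named titin, had 123 ± 14 FPKM in males and 152 ± 34 FPKM in females and was not called.

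In the thin filament, 4 of 14 sequences were higher in males and 2 in females (median 0.12). Muscle actin had 2166 ± 202 FPKM in males and 1184 ± 185 FPKM in females (log2 fold change 0.88, sensitive). Tropomyosin-1, which covers the myosin sites on actin, was higher in males in 2 sequences (0.93 and 0.53), and these calls held without any 1 library. Tropomyosin-2 (-0.34) and a troponin C, the calcium sensor (-0.58), were higher in females, both sensitive. The Tropomyosin-2 call ended in 10 of 12 alternatives, among them the other pseudocount and each library left out, and the troponin C call in 5. Among Z-disc and assembly proteins 3 of 16 were higher in males and 2 in females (median 0.12). Here the muscle LIM protein Mlp84B-like (0.82) held without any 1 library, and sarcomeric Alpha-actinin (0.75) and a Zasp sequence (0.95) were sensitive. Another Zasp sequence (-0.65) and the myosin chaperone unc-45 homolog B (-0.31) were higher in females, both sensitive. The most abundant of this list, Muscle-specific protein 20, had 3157 ± 160 FPKM in males and 2984 ± 512 FPKM in females and was not called.

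Of the calcium and energy proteins, 2 of 7 were higher in males, Sarcoplasmic calcium-binding protein (0.70) and Sarcalumenin (0.61), both sensitive, with the Sarcalumenin call also ended by median-of-ratios scaling (median of the list 0.28). Arginine kinase, the most abundant, was not called (0.23). Among the regulators of muscle and wing identity, homothorax was higher in males (0.49) and spalt-major in females (-0.35), both sensitive, out of 12 tested (median 0.12). The most abundant, held out wings, had 102 ± 4 FPKM in males and 101 ± 3 FPKM in females. By name ending, 10 calls in males and 2 in females came from 44 sequences ending in 1, and 3 and 3 from 32 sequences ending in 2. Calls by ending were not counted over all sequences, so nothing is read from this division.

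**Figure D4:**
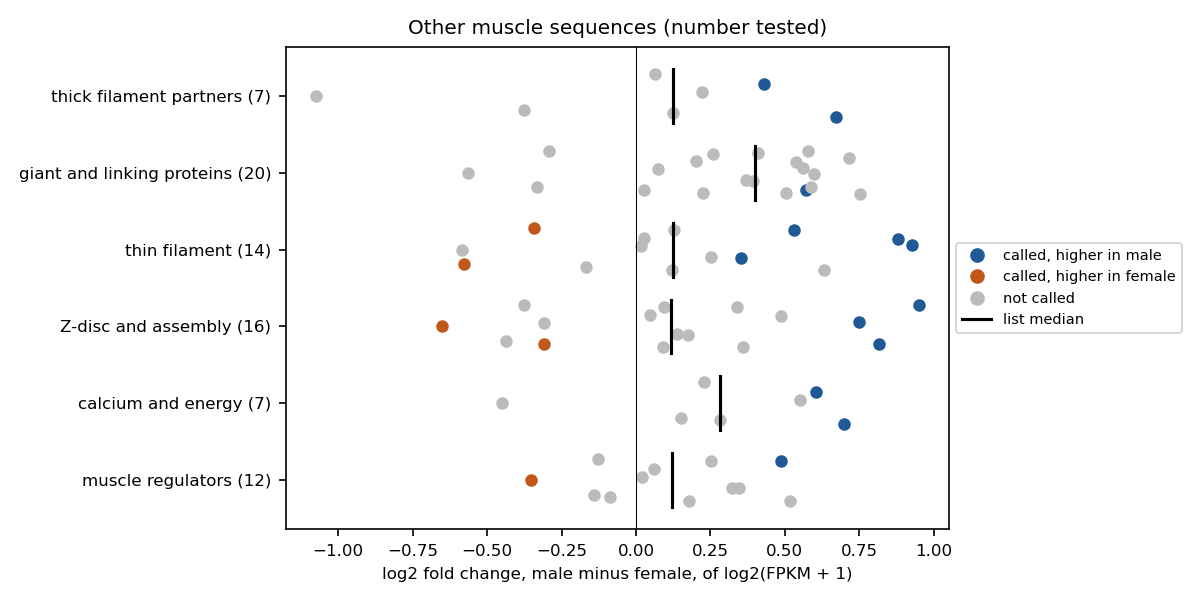
Log2 fold change, male minus female, of each tested sequence in the 6 lists of other muscle proteins and regulators, with the number tested in brackets. Colours mark calls at a limma adjusted p below 0.05 and black bars the list medians. Calls lie on both sides of 0 in the thin filament, Z-disc and regulator lists.

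The summed level of the 5 sarcomere lists without the regulators was 12718, 12299 and 12466 FPKM in males 1, 2 and 3, against 8715, 11162 and 11935 FPKM in females 1, 2 and 3. This sum leaves out the members, DN370 and DN886. Female 1 had the lowest sum. Flightin, DN3288, DN4327, DN370 and DN886 were also lowest among females there, and DN15509 and DN7594 were lowest in female 2. Levels of neural, eye, fat body and gut markers were summed in each library. The 6 neural markers summed to 24.5 to 28.1 FPKM in males and 15.1 to 20.6 FPKM in females, led by synaptotagmin 1 (log2 fold change 0.48, called, sensitive). The 15 eye markers summed to 61.0 to 64.8 FPKM in males and 43.6 to 55.5 FPKM in females, led by a chaoptin isoform X1 sequence (0.52, called). The 10 fat body markers summed to 37.8 to 44.3 FPKM in males and 99.3 to 118.8 FPKM in females, led by Apolipophorin-3 (-3.28, called). Apolipophorin-3 alone averaged 3.05 FPKM in males and 38.5 FPKM in females, a large part of the difference between these sums. The 14 gut markers summed to 212 to 225 FPKM in males and 170 to 176 FPKM in females, led by Glutamyl aminopeptidase (0.48, not called). Calls among the tested markers were 1 of 3 neural, 1 of 12 eye and 2 of 13 gut sequences, all higher in males. In fat body 3 of 9 were called, all higher in females. Of all sequences 4.40% were called higher in males and 2.70% higher in females, so nothing is read from these small counts. Log2 fold changes lay above 0 in 3 of 3 neural, 10 of 12 eye, 3 of 9 fat body and 10 of 13 gut sequences, beside 54.7% of all sequences. No marker was at 0 in every library. The summed levels of all 4 marker lists did not overlap between the sexes. Among single sequences, 18.2% had every male above every female and 12.0% every male below. These shares are no background for sums, so nothing is read from the lack of overlap. What part the tissue markers had in the values of the members was not tested.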

How the data were processed

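RNA from male and female heads was made into stranded mRNA libraries, per the labels' protocols, and assembled de novo, per the series' design text. Trimmomatic, HTSeq and R 3.2.0 stand in the submitters' processing notes, with no role. The aligner and any filters are not given in the sources used. The deposited table holds FPKM calculated by the authors, with their annotation. Below 1 FPKM, ratios between libraries clustered weakly (at most 4.88% in a window of 0.02 log2 units), too blurred to give whole reads, so depth is unknown and no count test was used.

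Sequences reaching 1 FPKM in 3 or more libraries (35198) were compared as log2(FPKM + 1) with limma 3.58.1 in R 4.3.3 (trend, two-sided, Benjamini-Hochberg, threshold 0.05). A fold change on this scale understates that of low sequences. Members and lists were chosen with earlier results of these data known. Lists were matched on description words, which takes in some other proteins (non-muscle light chains, for example). In each muscle list, up to 3 called sequences per direction with the largest change and the most abundant one are named, and in each marker list the most abundant; near profiles are the 3 nearest of distinct name. Alternatives were a pseudocount of 0.1, other filters, median-of-ratios scaling, a replicate block, the set of libraries as a term and each library left out. No sequences are printed, since none were used here.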

Additional observations from a re-analysis of the deposited data

How the results depend on the processing

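The 2501 calls over all sequences became 631 with a replicate block and 1136 with the set of libraries as a term, and 822 to 1776 when 1 library was left out. The 18 muscle calls became 5 with the replicate block and 9 with the set of libraries, and 4 to 21 when 1 library was left out; other alternatives gave 17 to 23. The cause was not tested. The labels do not say that a replicate number pairs samples. Correlations of deviations from the sex means were 0.11, 0.12 and -0.05 for numbers 1, 2 and 3; males 1 and 2 correlated best with the female of their own number and male 3 with female 2, so the numbers were not taken as pairs. After the data were seen, lists without misleading matches were added, with 18 calls of 70. The number of members with a higher mean in males was 3, and it fell to 2 without male 2, where DN7594 changed sign. It stayed at 3 with the other pseudocount, with median-of-ratios scaling and without any other library. This number was not counted with the replicate block or the set of libraries as a term. The difference on the log2 scale ranged from 1.78 to 2.59 for DN15509, 0.87 to 1.03 for DN4327, -0.35 to -0.12 for DN3288, -1.50 to -1.22 for flightin and -0.0071 to 0.22 for DN7594. Uncalled sequences changed sign: held out wings to -0.050 with median-of-ratios scaling and from -0.014 to 0.041 when 1 library was left out (-0.014 without male 2, -0.0024 without female 1). Muscle-specific protein 20 ranged from -0.048, without female 1, to 0.20. Read depth is unknown, so low members such as DN15509 in females carry a counting error that cannot be given.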
